A study of Mus musculus with 9 samples.

Results

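The genes described here are 8 regulators and markers of epithelial cells, the grainyhead-like factors Grhl1, Grhl2 and Grhl3, the Ovo-like factors Ovol1 and Ovol2, the splicing regulators Esrp1 and Esrp2, and the adhesion molecule gene Epcam. They were chosen by name. All 8 were found among the 18193 genes with a probe set of their own, and 14 of 34945 such probe sets belonged to them. Where a gene had several probe sets the brightest, by its mean signal across the 9 arrays, stands for it, and the others served as a check. RNA was measured on Affymetrix Mouse Genome 430 2.0 arrays in 3 groups of 3 biological replicates, all labelled as mouse strain C57BL/6. The first group held embryonic stem cells (ESCs, the naive pluripotent state) grown in N2B27 medium with 1000 U/ml LIF and 250 ng/ml Wnt3a. The other groups held epiblast stem cells (EpiSCs, the primed state) in N2B27 with bFGF (12 ng/ml) plus ActivinA (20 ng/ml), given either IWP2 or vehicle. IWP2 inhibits Porcupine, the enzyme that acylates Wnt proteins so that they can be secreted. How many cell lines the replicates came from is not given in the sources used here, and the p-values measure the spread between these cultures.

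Grainyhead factors bind DNA in epithelia and switch on genes of adherens and tight junctions. Ovo-like factors are zinc finger repressors that hold back mesenchymal genes, Zeb1 among them, and in human breast cells GRHL2 and ZEB1 repress each other. The Esrp proteins bind RNA and set the epithelial pattern of exon use, for example in Fgfr2, Cd44, Ctnnd1 and Enah transcripts. Epcam encodes a membrane protein of epithelia and of pluripotent cells that partners with claudin-7. EpiSCs grow as a flat epithelial sheet and sit close to gastrulation, when cells of the epiblast leave the epithelium, so these genes are of interest where Wnt signalling is altered.

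The labels of ESCs and EpiSCs were borne out by marker genes. In ESCs against vehicle EpiSCs, 6 of 6 naive markers were higher at a limma adjusted p under 0.05 (38.7% of all genes). All 6 primed markers were lower (27.9%), and of 6 general pluripotency markers 4 were higher and 1 lower. With IWP2, 1 naive and 3 primed markers fell (16.8% of all genes) and 1 primed marker rose (16.6%). Of the general ones 3 fell and 3 rose. Zfp42, a naive marker, averaged 12.98 log2 units in ESCs, 2.47 in IWP2 EpiSCs and 2.54 in vehicle EpiSCs. Fgf5, a primed marker, averaged 3.28 in ESCs, 8.38 in IWP2 EpiSCs and 10.86 in vehicle EpiSCs. Pou5f1, which both states express, averaged 12.12 in ESCs, 11.61 in IWP2 EpiSCs and 11.30 in vehicle EpiSCs. Replicate arrays correlated at 0.997 to 0.998 over all probe sets. The difference between 3' and 5' actin control probe sets, a sign of RNA integrity, was 0.64 to 0.66 in ESCs, 0.64 to 0.69 in IWP2 EpiSCs and 0.53 to 0.59 in vehicle EpiSCs, and its part in the differences given here was not tested. Values are log2 signals on which 1 unit is a 2-fold difference. The lower quartile of all values, 3.72, is taken as the neighbourhood of the array's floor, where differences are compressed, and arrays have no read depth.

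Promoter windows from RefSeq, on build GRCm38.p6, were held for 4 of the 8 genes. The 250 bases before the start of transcription are shown 5′ to 3′ for these 4, to show the sequence at the start of the genes whose levels are given below. For Grhl1, which has 2 windows, the upstream one is shown. Capitals mark matches to CAGGTG, the E-box bound by Snai and Zeb factors, on either strand.
Grhl1, chr12:24572037-24572286, plus strand: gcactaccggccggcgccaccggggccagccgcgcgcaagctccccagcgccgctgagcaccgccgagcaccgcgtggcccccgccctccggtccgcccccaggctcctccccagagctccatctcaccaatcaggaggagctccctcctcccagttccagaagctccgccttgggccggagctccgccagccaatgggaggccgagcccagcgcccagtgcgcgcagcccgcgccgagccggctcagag
Grhl3, chr4:135573633-135573882, minus strand: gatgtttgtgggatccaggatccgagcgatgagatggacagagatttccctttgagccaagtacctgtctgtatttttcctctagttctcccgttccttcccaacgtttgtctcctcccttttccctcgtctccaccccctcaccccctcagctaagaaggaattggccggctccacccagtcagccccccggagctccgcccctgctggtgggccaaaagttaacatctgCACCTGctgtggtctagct
Ovol2, chr2:144331363-144331612, minus strand: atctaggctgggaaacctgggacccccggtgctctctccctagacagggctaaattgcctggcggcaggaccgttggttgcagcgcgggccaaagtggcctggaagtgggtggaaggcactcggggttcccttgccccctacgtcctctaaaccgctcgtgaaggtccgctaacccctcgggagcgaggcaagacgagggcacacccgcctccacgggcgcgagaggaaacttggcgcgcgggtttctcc
Epcam, chr17:87635729-87635978, plus strand: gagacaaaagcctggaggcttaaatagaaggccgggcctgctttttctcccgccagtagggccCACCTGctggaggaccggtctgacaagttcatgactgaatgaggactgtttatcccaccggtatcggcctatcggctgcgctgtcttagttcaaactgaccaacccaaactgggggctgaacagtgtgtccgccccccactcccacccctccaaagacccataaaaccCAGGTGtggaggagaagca

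An E-box was found in 17.2% of all 32851 promoter windows of this length. Grhl3 had 1, starting 19 bases before the start, and Epcam had 2, starting 187 and 19 bases before it. None lay in the windows of Grhl1 (both windows) and Ovol2. The grainyhead motif AACCGGTT (0.116% of all windows), the Ovo-like motif CCGTTA (2.18%) and the Tcf/Lef motif CTTTGAT (3.21%), searched on both strands, had no match in these windows, so no matches overlapped. GC content was 75.6% for Grhl1, 56.0% for Grhl3, 65.2% for Ovol2 and 56.4% for Epcam.

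The comparison of IWP2 with vehicle asked what EpiSCs lose when they cannot release their own Wnt proteins. All 3 grainyhead-like genes, Ovol2 and both Esrp genes fell with IWP2, and Epcam, the adhesion molecule itself, did not pass the test. The falls were led by Ovol2, which fell by 1.59 on the log2 scale, and Esrp2, which was 1.95-fold lower, and the others were between 1.22-fold and 1.55-fold. Thus 6 of 8 members were called lower at a limma adjusted p under 0.05, beside 16.8% of all genes tested, and 0 were called higher, beside 16.6%. The median over the 8 was -0.47 and over all 18193 genes 0.033. In cultures of this kind fewer cells of a type and less RNA per cell cannot be told apart.

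Among the transcription factors, Ovol2 read 5.09, 5.17 and 5.29 on the IWP2 arrays, against 6.68, 6.99 and 6.64 on the vehicle arrays. The groups were far apart, with a difference of -1.59 ± 0.138 (SE, limma adjusted p = 1.99e-05). Its relative Ovol1 read 3.65, 3.68 and 3.55 with IWP2, against 3.91, 3.76 and 3.55 with vehicle. Those groups overlapped near the floor, and the difference of -0.11, with a 95% confidence interval from -0.32 to 0.10, was not called (adjusted p = 0.405). At this signal a fall like that of Ovol2 could not have been seen in full.

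Grhl3, which in mice is needed for closure of the neural tube and for the skin barrier, read 4.57, 4.47 and 4.51 with IWP2, against 5.14, 5.18 and 5.13 with vehicle. Every IWP2 array lay below every vehicle array, and the difference was -0.63 ± 0.103 (SE, limma adjusted p = 0.00117). Grhl2, the family member most tied to Cdh1 and the claudins, read 6.97, 6.86 and 6.98 with IWP2, against 7.54, 7.69 and 7.07 with vehicle. Its groups did not overlap, but vehicle replicate 3 lay close to the IWP2 arrays, and the SD was 0.069 with IWP2 and 0.324 with vehicle. The difference was -0.50 ± 0.136 (SE, adjusted p = 0.018). Grhl1, known for its role in desmosomes of the epidermis, read 4.65, 4.77 and 4.75 with IWP2, against 5.15, 5.24 and 5.10 with vehicle, a difference of -0.44 ± 0.125 (adjusted p = 0.0218). The calls of Grhl1 and Grhl2 were the least secure. That of Grhl2 was lost without vehicle replicate 1 (adjusted p = 0.0655), without vehicle replicate 2 (0.0622) and without IWP2 replicate 2 (0.0606). For Grhl1 it was lost without vehicle replicate 1 (0.0533) or 2 (0.0751) and without IWP2 replicate 1 (0.0686) or 3 (0.0527), and also when 32 was added to the linear signals (difference -0.22, adjusted p = 0.091). Both stayed below 0 in all 21 alternatives that kept the threshold of 0.05. Several of these, such as the replicate block or leaving out an ESC array, leave these differences unchanged by construction.

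The splicing regulators fell by unequal amounts. Esrp2 read 5.59, 5.72 and 5.69 with IWP2, against 6.79, 6.66 and 6.44 with vehicle, a difference of -0.96 ± 0.085 (SE, limma adjusted p = 2.3e-05) with no overlap. Esrp1 read 9.35, 9.41 and 9.30 with IWP2, against 9.63, 9.67 and 9.60 with vehicle. Its fall was small (-0.28 ± 0.053, adjusted p = 0.00262) but the arrays were tight, with SDs of 0.052 with IWP2 and 0.035 with vehicle, and the groups did not overlap. Epcam read 11.95, 12.03 and 12.04 with IWP2, against 11.93, 11.96 and 11.96 with vehicle. These groups overlapped, and the 95% confidence interval of the difference ran from -0.060 to 0.17 (difference 0.056, limma adjusted p = 0.452).

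**Figure D1:**
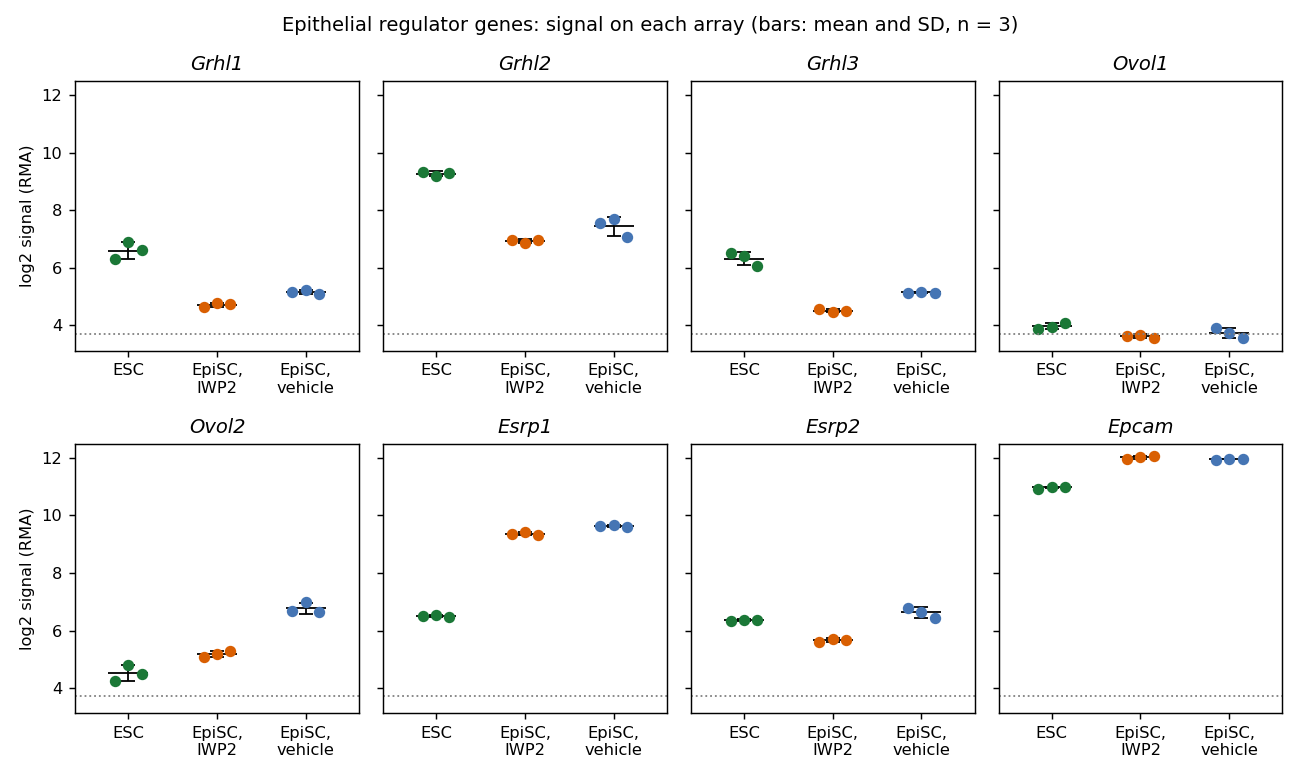
Log2 signal (vertical axis) of the 8 genes on each of the 9 arrays, in ESCs, IWP2 EpiSCs and vehicle EpiSCs; black bars give the mean and SD (n = 3) and the dotted line the lower quartile of all values, 3.72. Ovol2 sits at 5.09 to 5.29 in IWP2 EpiSCs, below all vehicle arrays, the EpiSC groups overlap for Epcam, and the 3 grainyhead-like genes are highest in ESCs.

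Markers of other cells were also examined with IWP2. Over all genes 16.8% were lower and 16.6% higher in this comparison. All 8 of 8 definitive endoderm markers fell, with a median of -4.02, and their mean level per array was 4.04 to 4.18 with IWP2, against 8.67 to 8.85 with vehicle. With IWP2 the means of Cxcr4 and Gsc were below 3.72, while with vehicle no mean of this list was. Of 8 trophoblast markers 3 fell and 0 rose, with mean levels of 4.34 to 4.46 with IWP2 and 5.09 to 5.15 with vehicle. Elf5 was below 3.72 in both groups and Gata3 with IWP2. Of 8 markers of surface ectoderm and epidermis 2 fell, Sfn and Krt15, and 0 rose, at a median of only -0.023. Their mean levels were 4.39 to 4.45 with IWP2 and 4.56 to 4.61 with vehicle, and Trp63 read 3.75 with IWP2 and 3.76 with vehicle. Of 8 fibroblast and feeder markers 3 fell and 2 rose, with mean levels of 5.01 to 5.17 with IWP2 and 5.39 to 5.74 with vehicle, and Lum was below 3.72 with IWP2. The part of the endoderm, trophoblast and other cells in the falls of Ovol2, Esrp2 and the grainyhead-like genes was not tested.

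ESCs set against vehicle EpiSCs ask how the naive state differs from the primed one, and here cell type and medium cannot be told apart. The 3 grainyhead-like genes were 2.26-fold to 3.55-fold higher in ESCs. Esrp1 was 8.75-fold, Ovol2 4.75-fold and Epcam 1.98-fold lower. With 2 small calls, Ovol1 higher and Esrp2 lower, 4 members were called higher, beside 38.7% of all genes tested, and 4 lower, beside 27.9%. The median was -0.014 over the 8 and 0.12 over all genes.

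Grhl2 read 9.33, 9.17 and 9.29 in ESCs, well above the vehicle arrays, a difference of 1.83 ± 0.136 (SE, limma adjusted p = 1.07e-06). Grhl1 read 6.29, 6.88 and 6.61 in ESCs, a difference of 1.43 ± 0.125 (adjusted p = 3.8e-06). Grhl3 read 6.51, 6.41 and 6.05 in ESCs, a difference of 1.17 ± 0.103 (adjusted p = 3.75e-06). No ESC array of these 3 genes overlapped a vehicle array, and the calls held in all 21 alternatives that kept the threshold. Against a minimum difference of 1 log2 unit, Grhl3 was not called (limma's treat, adjusted p = 0.446). Tfcp2l1, a naive pluripotency factor of the CP2 branch to which the grainyhead proteins are related, was higher by 5.73 ± 0.062 in ESCs. The other CP2 genes on the array differed less, with Ubp1 at 0.34 and Tfcp2 at -0.63.

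Esrp1 read 6.50, 6.54 and 6.48 in ESCs, against 9.63, 9.67 and 9.60 in vehicle EpiSCs. This was the largest difference of any of the 8 genes in any comparison, -3.13 ± 0.053 (SE, limma adjusted p = 2.46e-11). Esrp2 read 6.34, 6.38 and 6.37 in ESCs, just under the lowest vehicle array at 6.44, and its difference of -0.26 ± 0.085 (adjusted p = 0.0204) was called in 17 of the 21 alternatives. It was lost without vehicle replicate 1 (0.077), without vehicle replicate 2 (0.0565), without ESC replicate 1 (0.0529) and after repeated quantile normalization (difference -0.11, adjusted p = 0.291).

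Ovol2 read 4.26, 4.80 and 4.51 in ESCs, against 6.68, 6.99 and 6.64 in vehicle EpiSCs, a difference of -2.25 ± 0.138 (SE, limma adjusted p = 2.51e-07). Ovol1 read 3.89, 3.94 and 4.10 in ESCs, overlapping vehicle replicate 1 at 3.91, and its call (difference 0.24, adjusted p = 0.049) was kept in only 4 of 20 alternatives. It was lost, for instance, without vehicle replicate 3 (difference 0.14, adjusted p = 0.173) and after cyclic loess (0.082, adjusted p = 0.481). Epcam read 10.93, 10.97 and 10.99 in ESCs, against 11.93, 11.96 and 11.96 in vehicle EpiSCs, a difference of -0.99 ± 0.052 (adjusted p = 7.52e-08). Epcam was among the brighter probe sets in all 3 groups, so its fall in ESCs was measured far from the floor.

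Beside these values, all 8 definitive endoderm markers were lower in ESCs (median -3.90), with mean levels of 4.33 to 4.44 in ESCs and 8.67 to 8.85 in vehicle EpiSCs, and with Cxcr4 and Gsc below 3.72 in ESCs. Trophoblast markers gave 4 higher and 2 lower of 8, with Tfap2c, also a gene of naive cells, at 4.25 and mean levels of 5.23 to 5.25 in ESCs against 5.09 to 5.15 in vehicle EpiSCs. In this list Elf5 and Gata3 were below 3.72 in ESCs. Surface ectoderm markers gave 2 higher and 1 lower of 8, at 4.53 to 4.67 in ESCs and 4.56 to 4.61 in vehicle EpiSCs. Fibroblast markers gave 1 higher and 4 lower of 8, at 4.55 to 4.58 in ESCs and 5.39 to 5.74 in vehicle EpiSCs, with Lum below 3.72 in ESCs. These counts stand beside 38.7% higher and 27.9% lower over all genes. The part of endoderm, trophoblast and other such cells in the members' differences was not tested.

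Against IWP2 EpiSCs, in which the endoderm markers were low, all 8 genes were called. The grainyhead-like genes were higher by 1.87 ± 0.125 for Grhl1, 2.33 ± 0.136 for Grhl2 and 1.80 ± 0.103 for Grhl3 (SE, limma adjusted p of 4.48e-07 or smaller). Esrp1 was lower (-2.85 ± 0.053), as were Epcam (-1.04 ± 0.052) and Ovol2 (-0.66 ± 0.138, adjusted p = 0.00192). Esrp2 was higher in ESCs than in IWP2 EpiSCs by 0.70 ± 0.085 (adjusted p = 4.44e-05). Counting Ovol1 (0.35, adjusted p = 0.0089), 5 members were called higher, beside 35.2% of all genes, and 3 lower, beside 26.9%. The median was 0.52 over the 8 and 0.10 over all genes. This comparison shares its ESC arrays with the previous one and its IWP2 arrays with the one before, so the 3 sets of differences are not independent. The dim genes depended on the scale: with 32 added to the linear signals Ovol2 differed by -1.05 with IWP2, by -1.36 between ESCs and vehicle EpiSCs and by -0.31 between ESCs and IWP2 EpiSCs. On that scale Grhl3 differed by -0.30, 0.73 and 1.03 in the same comparisons, Grhl1 by 0.93 and 1.14 in those with ESCs, and these calls held.

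Ordered from low to high, Grhl1, Grhl2 and Grhl3 each ran from IWP2 EpiSCs through vehicle EpiSCs to ESCs, and every step was called. The step between the EpiSC groups was not secure for Grhl1 and Grhl2, and for Grhl2 it rests on 1 probe set. Ovol2 ran from ESCs through IWP2 EpiSCs to vehicle EpiSCs, again with every step called, and Esrp1 took the same order. For Esrp2 the order was IWP2 EpiSCs, ESCs, vehicle EpiSCs, with a narrow step between ESCs and vehicle EpiSCs. Epcam was lowest in ESCs, and the EpiSC groups did not differ beyond their spread. Ovol1 varied by only 0.35 between its group means, near the floor.

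**Figure D2:**
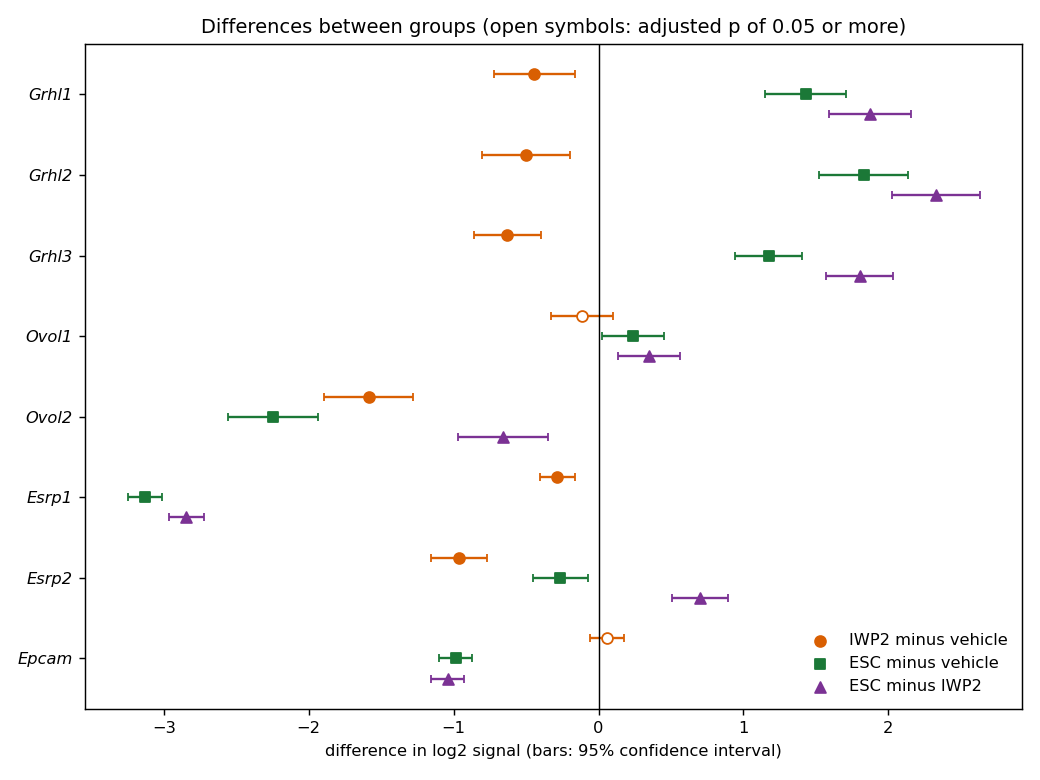
Differences in log2 signal (horizontal axis) of the 8 genes (rows) for IWP2 minus vehicle, ESC minus vehicle and ESC minus IWP2; bars give 95% confidence intervals and open symbols an adjusted p of 0.05 or more. The grainyhead-like genes lie left of 0 with IWP2 and right of 0 in ESCs, whereas Ovol2 and Esrp1 lie left of 0 in both.

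The remaining probe sets served as a check, tested among all 34945 probe sets with 1 gene symbol. Of 3 further Grhl2 probe sets, 1 was higher in ESCs than in vehicle EpiSCs by 0.40 (limma adjusted p = 0.000784), and the 2 others differed by -0.014 and -0.015 and were not called. None of the 3 was called for IWP2 minus vehicle, where they gave -0.057, -0.053 and -0.083. Taken as the mean of its 4 probe sets, Grhl2 differed by -0.17 with IWP2 and was not called (adjusted p = 0.0838), so this fall rests on 1 probe set. The same mean gave 0.55 for ESCs against vehicle EpiSCs and 0.72 for ESCs against IWP2 EpiSCs, both still called. As means of their 2 probe sets, Esrp2 differed by -0.60 with IWP2 and by 0.38 between ESCs and IWP2 EpiSCs, and Epcam by -0.58 between ESCs and vehicle EpiSCs and by -0.63 between ESCs and IWP2 EpiSCs, all called. The other Esrp2 probe set gave -0.23 with IWP2 (adjusted p = 0.114) at a signal of 4.54 with IWP2 and 4.77 with vehicle, and 0.054 for ESCs minus IWP2 EpiSCs (adjusted p = 0.664). The other Epcam probe set was not called with IWP2 (0.046, adjusted p = 0.696) or in ESCs against vehicle EpiSCs (-0.17, adjusted p = 0.07), and was lower in ESCs than in IWP2 EpiSCs (-0.22, adjusted p = 0.029). The other Ovol1 probe set read 3.35 with IWP2 and 3.39 with vehicle, under the lower quartile. Grhl1, Grhl3, Ovol2 and Esrp1 had 1 probe set each and thus no such check.

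**Figure D3:**
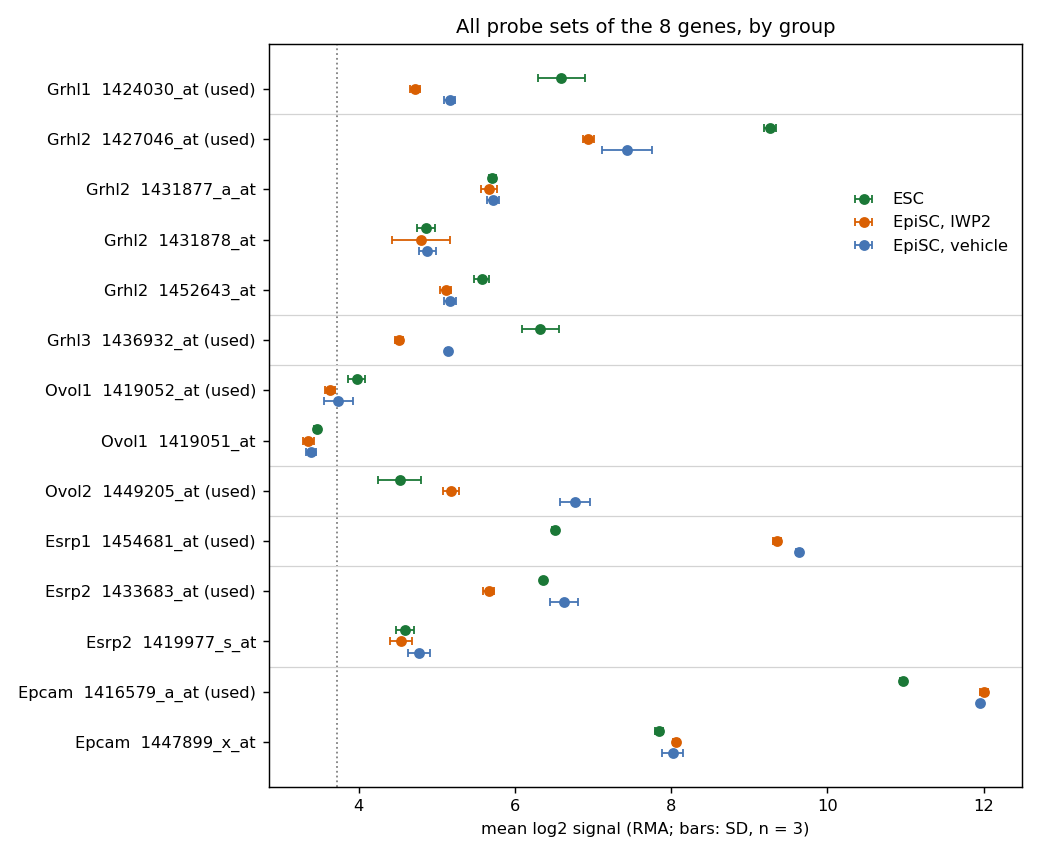
Mean log2 signal (horizontal axis, bars SD, n = 3) of all 14 probe sets of the 8 genes in ESCs, IWP2 EpiSCs and vehicle EpiSCs; the dotted line is the lower quartile of all values. On the probe set used for Grhl2, ESCs separate clearly from both EpiSC groups, which come close to each other. ESCs alone stand apart on 1 of its other 3, and the dimmer Epcam probe set shows a smaller step than the one used.

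Among genes that the grainyhead factors are known to serve, more fell than rose with IWP2. Of 22 genes of the epithelial junction and protease programme tied to Grhl2, 9 fell, 2 rose and 11 did not pass the test, at a median of -0.12 against 0.033 over all genes, of which 16.8% fell and 16.6% rose. The calls with the smallest p were those of St14, the gene for the protease matriptase (-1.52 ± 0.059, SE, limma adjusted p = 6.36e-08), and Cldn7, a claudin that binds Epcam (-2.25 ± 0.100, adjusted p = 1.76e-07). Cdh1, which encodes E-cadherin, fell by 0.45 ± 0.063 (adjusted p = 0.000463). The polarity gene Llgl2 (0.61) and the tight junction scaffold gene Tjp3 (0.69) rose. In ESCs against vehicle EpiSCs, where the grainyhead-like genes were higher, 6 of the 22 were higher, 12 lower and 4 not called, with a median of -0.45 against 0.12. Of all genes 38.7% were higher and 27.9% lower in that comparison. Ap1m2, an epithelial clathrin adaptor subunit (1.75), and the Ets factor gene Elf3 (1.54) were higher, while Marveld2, which encodes tricellulin (-3.90), Cldn7 (-3.28) and Cdh1 (-0.78) were lower. Ap1m2 read 3.59 in vehicle EpiSCs, at the floor, and Marveld2 read 3.86 in ESCs, close to it.

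Mesenchymal genes, which Ovo-like and grainyhead factors oppose, changed in both directions. With IWP2, 3 of 13 rose, 6 fell and 4 did not pass the test (median -0.28, against 0.033, 16.6% higher and 16.8% lower over all genes). Zeb1 rose by 0.51 ± 0.107 (SE, limma adjusted p = 0.00498), as did Snai2 (1.11) and Twist1 (0.90), and Cdh2, the gene for N-cadherin (-1.42), and the matrix gene Fn1 (-1.38) fell. Of 3 further Zeb1 probe sets 1 rose as well, by 0.58, and 2 were not called. Snai1 was not called (-0.035, adjusted p = 0.856), at 3.89 with IWP2 and 3.93 with vehicle. Zeb2 gave different answers by probe set. The brightest differed by -0.29 with IWP2 and was not called (adjusted p = 0.0828), while another read 5.39 with IWP2 and 6.52 with vehicle, a difference of -1.12 (adjusted p = 0.000281 among all probe sets). In all, 3 of 5 Zeb2 probe sets were called lower with IWP2, and the mean of the 5 differed by -0.63 (adjusted p = 4.45e-05), although Zeb2 counts as not called in the list. Among those called, a probe set read 3.32 with IWP2 and 3.67 with vehicle, both below 3.72. Another read 3.36 with IWP2. In ESCs the probe set that read 6.52 with vehicle read 2.79, below the lower quartile of 3.72. The size of its difference from vehicle EpiSCs is therefore not given. Of the 5 probe sets 4 were called lower in ESCs, 2 of them below 3.72 in every group. Over the list, 2 of 13 were higher in ESCs, 6 lower and 5 not called, with a median of -0.26, against 38.7% higher and 27.9% lower over all genes. Cdh2 (-3.62) and Twist1 (-1.35) were lower, Snai2 (0.29) and Snai1 (0.37) were higher by small amounts, and Zeb1 was not called (0.058, adjusted p = 0.647). Twist1 read 3.99 in ESCs, close to the floor. Snai2 was not called in ESCs when sets with _x_at or _s_at names were dropped (adjusted p = 0.0687), and Snai1 was not after cyclic loess (adjusted p = 0.158). Snai2 was also lost without vehicle replicate 1 (0.0547) or 2 (0.0562). Snai1 was lost without vehicle replicate 2 (0.0742) or ESC replicate 1 (0.0696) and after repeated quantile normalization (0.0816).

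Of 14 other splicing regulators, 4 rose, 4 fell and 6 did not pass the test with IWP2 (median 0.034), beside 16.6% higher and 16.8% lower over all genes. Rbm47, an RNA-binding protein gene of epithelia, fell to 3.29 with IWP2, below 3.72, against 6.14 with vehicle (-2.84 ± 0.133, SE, limma adjusted p = 2.51e-07). Rbfox1 fell as well (-1.28), and Mbnl2 (0.74) and Nova2 (0.47), a neuronal splicing factor gene, rose. In ESCs 5 were higher, 7 lower and 2 not called against vehicle EpiSCs, with a median of -0.074, beside 38.7% higher and 27.9% lower over all genes. Among them Mbnl3 (1.36) and Rbfox2 (0.31) were higher, and Ptbp2, the neural form of the polypyrimidine tract binding protein (-1.58), and Rbfox1 (-1.51) were lower. Rbfox1 was close to the floor with IWP2 (4.15) and in ESCs (3.92).

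Transcripts whose exons the Esrp proteins are known to select were called with IWP2 at a share near that of all genes. The 12 had a median of -0.049, and 3 fell (16.8% of all genes), 2 rose (16.6%) and 7 did not pass the test. The hyaluronan receptor gene Cd44 fell by 2.13 ± 0.086 (SE, limma adjusted p = 8.34e-08), Numb by 0.48, and the laminin receptor subunit gene Itga6 rose by 0.34. Fgfr1 rose by 0.26, a call lost when sets with _x_at or _s_at names were dropped (0.095, adjusted p = 0.499). It was also lost as the mean of its probe sets (0.15, adjusted p = 0.085), without vehicle replicate 2 (adjusted p = 0.0641) and without IWP2 replicate 3 (0.0676). In ESCs, where Esrp1 was low, 6 of 12 were lower than in vehicle EpiSCs (27.9% of all genes), 1 higher (38.7%) and 5 not called, with a median of -0.26. Cd44, at 2.89 in ESCs and so below 3.72, against 7.35 in vehicle EpiSCs, and Numb (-1.01) were lower, and Enah, an actin regulator gene, was higher (0.82). These probe sets report total transcript, and exon use was not measured here.

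Among relatives, partners and cleaving proteases of Epcam, 9 of 14 measured genes fell with IWP2, 0 rose and 5 did not pass the test (median -0.37), beside 16.8% lower and 16.6% higher over all genes. Epcam itself was not called. St14, Cldn7, Spint2 and Cd44, which this list shares with those above, were among the genes that fell. The call of Psen2, also among them, was lost as the mean of its probe sets (-0.046, limma adjusted p = 0.509) and with the replicate block (adjusted p = 0.0619). It was also lost after repeated quantile normalization (0.0657) and without vehicle replicate 1 (0.0883), 2 (0.0668) or 3 (0.0887). The same held without IWP2 replicate 1 (0.114) or 2 (0.122) and without ESC replicate 2 (0.0506). In ESCs 2 of 14 were higher (38.7% of all genes), 8 lower (27.9%) and 4 not called against vehicle EpiSCs, with a median of -0.29. The tetraspanin genes Cd9 (2.01 ± 0.073, SE, limma adjusted p = 5.01e-09) and Tspan8 (0.75) were the higher ones, and Cd44 and Cldn7 led the lower ones. In the CP2 group, Tfcp2l1 fell by 0.70 with IWP2, a call lost as the mean of its probe sets (-0.16, adjusted p = 0.0511). Ubp1 and Tfcp2 were not called, so that 1 of 3 fell (16.8% of all genes) and 0 rose (16.6%), with a median of -0.076. In ESCs 2 of these 3 were higher (38.7% of all genes) and 1 lower (27.9%), with a median of 0.34.

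**Figure D4:**
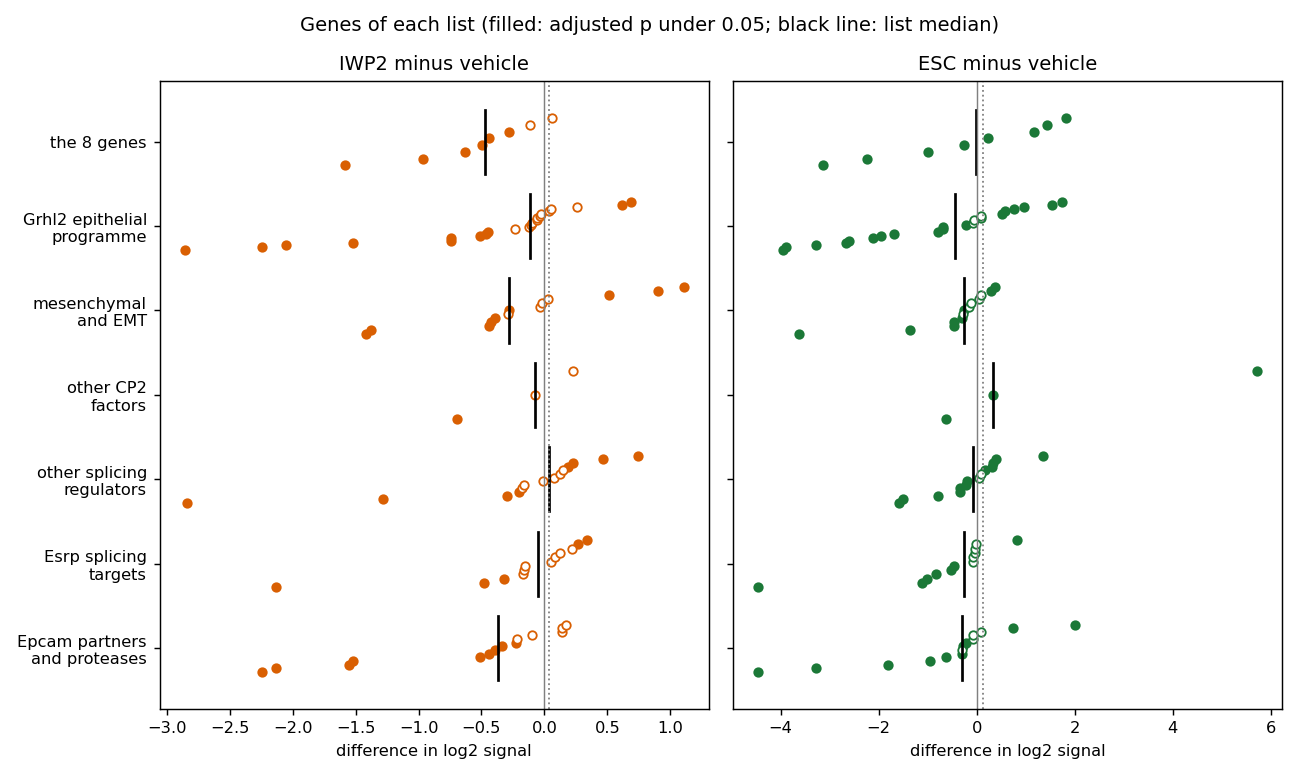
Differences in log2 signal (horizontal axis) of the single genes of each list, ESC minus vehicle beside IWP2 minus vehicle; filled points have an adjusted p under 0.05, black lines are list medians and the dotted line is the median of all genes. The 8 regulators lie mostly left of 0 with IWP2 (median -0.47) and on both sides in ESCs (median -0.014).

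Genes whose profile over the 9 arrays was most like a member's were found, among those as bright as the median probe set in some group, by the root mean square distance between log2 values centred on each gene's own mean. The 9 arrays form only 3 groups, so close profiles are common. For Esrp1 they were Lefty1 at 0.078, Prickle1 at 0.092 and Nab1 at 0.098 log2 units. Lefty1, a Nodal antagonist gene, averaged 9.16 in ESCs, 12.14 in IWP2 EpiSCs and 12.35 in vehicle EpiSCs. For Epcam they were Trp53bp1 (0.039), Akap9 (0.041) and Pom121 (0.042), at small spans of the group means. For Ovol2 they were Lrig3 (0.177), the TGF-beta receptor gene Tgfbr2 (0.187) and Tmem158 (0.207). Tgfbr2 averaged 4.86 in ESCs, 5.65 in IWP2 EpiSCs and 7.23 in vehicle EpiSCs. Grhl1 was nearest to Slc16a9 (0.133), Nkrf (0.149) and Ehd1 (0.151), Grhl3 to Acyp2 (0.121), Ehd1 (0.135) and Ccdc120 (0.138), and Grhl2 to Slc18b1 (0.154), Tmem64 (0.159) and the hedgehog pathway factor gene Gli2 (0.162). Ehd1 was thus listed for both Grhl1 and Grhl3. Ovol1 and Esrp2, whose group means spanned less than 1, were not searched.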

How the data were processed

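Biotin-labelled cRNA of 9 cultures was hybridised to Affymetrix arrays, per the labels' protocols. The authors deposited log2 signals for 45101 probe sets, and RMA and limma are named in the submitters' processing notes, with versions not given in the sources used here. RMA sets all arrays to 1 distribution, which hides shifts in total RNA, and gives no detection calls. No batch is named in the labels used here.

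Of the probe sets, 34945 had 1 gene symbol in the platform annotation, 932 several and 9160 none, and 64 were controls. The brightest probe set of each gene gave 18193 genes. Group means were fitted to all 9 arrays with limma 3.58.1 in R 4.3.3 (6 residual and 9.58 moderated degrees of freedom). Tests were two-sided, adjusted by Benjamini-Hochberg over all genes, and called under 0.05. The fit was tested on simulated data with independent normal noise and the same spread in every group. That test does not cover unequal spreads such as those of Grhl2. Equal replicate numbers did not pair the arrays: deviations from group means correlated at -0.06 to 0.05 between same-numbered arrays.

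The members and gene lists were chosen with earlier results of these data known, and lists are described by counts and medians only. Named were all members, the 2 called list genes with the smallest p in each direction, Cdh1, Zeb1, Zeb2, Snai1 and Tfcp2l1, the markers quoted and the 3 nearest profiles of members spanning at least 1 log2 unit (Riken clones, Gm models and _x_at probe sets passed over there). Other genes of these lists (Cldn7, Spint2 and Psen2 among Epcam partners with IWP2, Cxcr4, Gsc, Elf5, Gata3, Lum, Sfn, Krt15, Trp63 and Tfap2c) were named after their values were seen. Promoter windows were read from RefSeq with Python 3.11.15. Alternatives covered the choice of probe sets, a signal filter, an offset, normalization, the variance model, the arrays fitted, a replicate block, stricter thresholds and leaving out each array.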

Additional observations from a re-analysis of the deposited data

How the results depend on the processing

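No member's difference changed sign under any alternative. Alternatives that change only the test or the threshold could not change a sign. The fit with the replicate block called 5754 genes for IWP2 minus vehicle, 12024 for ESC minus vehicle and 11138 for ESC minus IWP2, and 6, 7 and 8 members, the one lost being Ovol1. Leaving out single arrays gave 4949 to 5965, 11077 to 12115 and 10565 to 11323 genes, 4 to 6, 6 to 7 and 8 to 8 members, and member medians of -0.56 to -0.39, -0.11 to 0.069 and 0.49 to 0.55. Testing all probe sets called 10168, 21764 and 20510 of them, since more were tested. For IWP2 minus vehicle, the stricter threshold of 0.01 left 3886 genes. Against a minimum difference of 1, treat called 345, 2148 and 2279 genes and 1, 4 and 4 members, as a stricter rule must. The member median moved to -0.36 for IWP2 minus vehicle and 0.30 for ESC minus IWP2 as the mean of each gene's probe sets, and to -0.28 and 0.29 with an offset of 32, which shrinks dim differences by its construction. Among genes above the median signal, which leaves out Ovol1, it was -0.26 for ESC minus vehicle and 0.70 for ESC minus IWP2. After cyclic loess it was -0.077 for ESC minus vehicle, and the cause was not tested. Ovol1 lay near background, where differences are compressed, and dim signals also limit Grhl1, Grhl3 and the IWP2 and ESC values of Ovol2.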
